A study of Homo sapiens with 6 samples.

Results

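The genes described here encode enzymes that place or remove methyl groups on histones and DNA, with the Polycomb proteins that work beside them. They were picked by name from 44 symbols, of which 42 were listed in both deposited count tables, among 12301 genes that the tables share. RING1, a Polycomb ubiquitin ligase, and EHMT2, an H3K9 methyltransferase, were in neither table and were not analysed here. The cells were NB4, a human acute promyelocytic leukemia line that carries the PML-RARA fusion and matures toward granulocytes when all-trans retinoic acid (ATRA) is given. Under ATRA at 1 µM, 2 knockdown libraries (hairpin 1 and hairpin 2 against SMARCD2) and 1 library with the control construct were sequenced, and the same 3 constructs were sequenced in the vehicle DMSO. SMARCD2 belongs to BAF (SWI/SNF), a complex that moves nucleosomes and opens chromatin. The labels do not say whether a construct was carried by a clone or a pool, nor whether the libraries came from separate cultures, so p-values measure only the spread between these libraries.

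Polycomb repressive complex PRC2 methylates H3K27 and PRC1 ubiquitinates H2A, and both keep developmental genes silent. BAF complexes are known to oppose Polycomb at many sites. DNA methyltransferases silence CpG-rich DNA and TET enzymes oxidise the methyl group, while methylation of H3K4 and H3K36 marks active genes and that of H3K9 marks silent ones. Many of these genes, among them TET2, DNMT3A, ASXL1, EZH2 and KMT2A, are mutated or rearranged in myeloid leukemias.

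Library totals lay between 29291209 and 58099733 counts. The control libraries had the lowest totals, 29291209 in DMSO and 29521141 in ATRA, against at least 41846630 in the knockdown libraries. Depth thus went with knockdown state. Sequencing run 1 supplied 53.1% to 80.7% of a library, with the lowest shares in the control libraries. SMARCD2 stood at 64.2 CPM (the count scaled to a common library size) with hairpin 1 and 35.6 CPM with hairpin 2 in ATRA, against 122 CPM in the control. In DMSO it stood at 39.0 and 25.7 CPM with the hairpins, against 95.5 CPM in the control, so it lay below the control in 4 of 4 knockdown libraries. MPO, the myeloperoxidase gene of promyelocytes, stood between 4298 and 5764 CPM in ATRA, against 9866 to 10044 CPM in DMSO. Of 8 markers of T, B, erythroid and epithelial cells, 3 were in both tables, at 2.06 to 19.1 CPM. Of the measured maturation markers 6 of 6 rose under ATRA, and of the measured promyelocyte markers 2 rose and 4 fell. In such bulk libraries, fewer cells of a type and less RNA per cell cannot be told apart.

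ATRA changed most of these genes by small amounts and a few by a lot. Over the 3 constructs, 15 of the 42 members rose and 17 fell (edgeR quasi-likelihood test, adjusted p under 0.05 over all genes), against 36.2% of all genes that rose and 37.8% that fell. The share of members called was thus 35.7% upward and 40.5% downward, close to the shares of all genes. The counts by role given below stand beside these same shares of all genes. Changes of at least 2-fold were found in 2 members upward and 2 downward, where 11.9% and 9.28% of all genes changed that much. The ATRA libraries did not overlap the DMSO libraries in 32 members, or 76.2%, and in 77.1% of all genes. The median absolute log2 fold change was 0.34 for the members and 0.44 for all genes. Scaling to total counts moved the median log2 fold change of all genes to -0.14, against -0.013 in the reported fit, and 13 members (31%, against 29.6% of all genes) were then higher and 19 (45.2%, against 46.5%) lower. That scaling moved the log2 fold change of every member by -0.13, which is over 1.5 times for the small changes of EZH2 (-0.38), CBX8 (-0.38), TET3 (0.19), KMT2D (0.24), SETD2 (0.13), EHMT1 (-0.28), NSD1 (0.13), DOT1L (-0.33) and KDM5C (0.053).

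**Figure D1:**
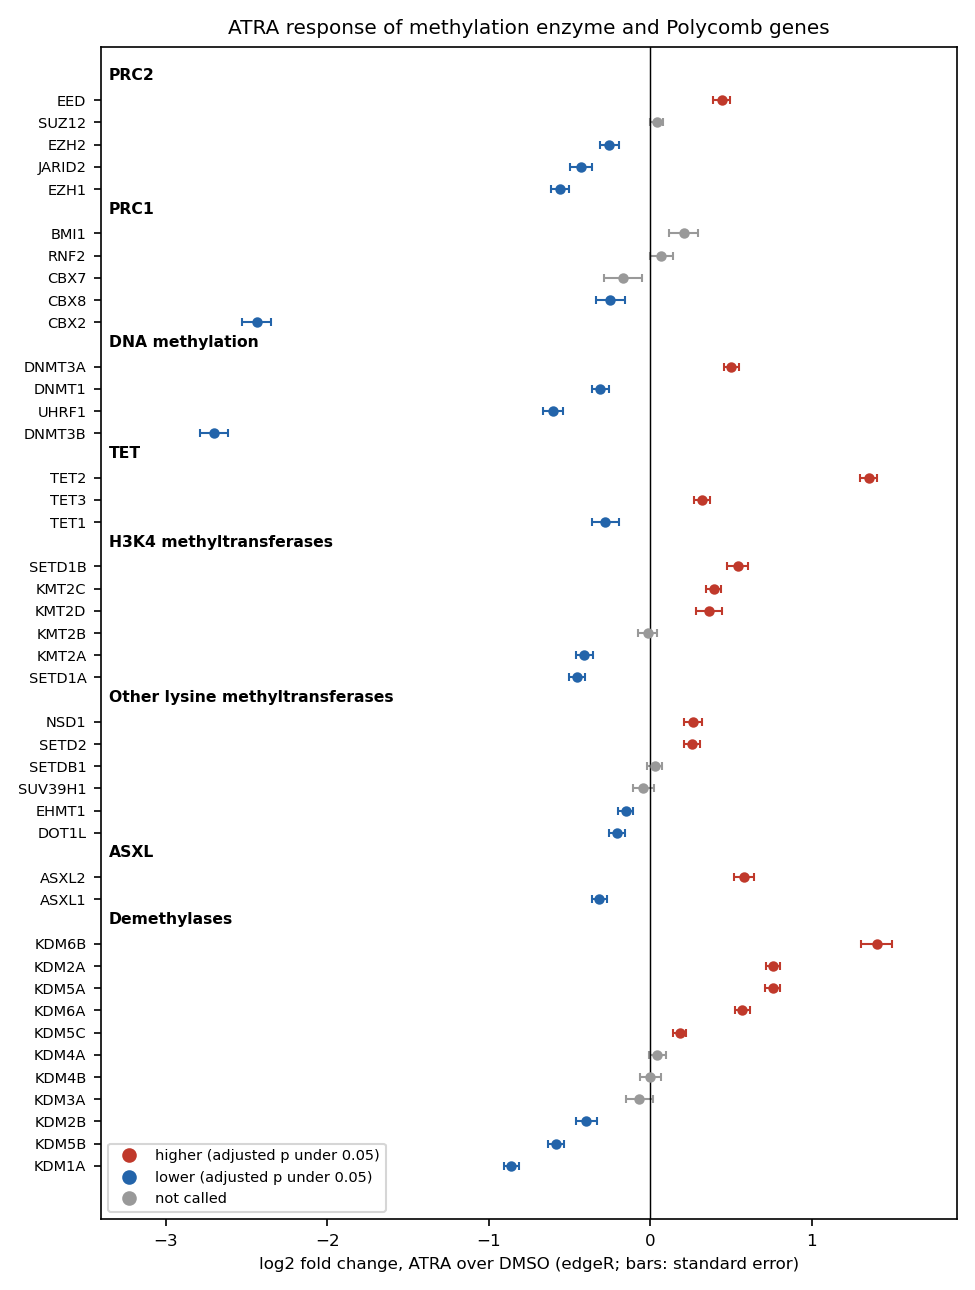
Log2 fold change of each measured member, ATRA over DMSO, with its standard error (n = 3 libraries each), grouped by role and coloured by the edgeR call. DNMT3B at -2.70 and CBX2 at -2.44 lie far below the other members, and KDM6B at 1.40 and TET2 at 1.35 lie above them.

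DNMT3B, a de novo DNA methyltransferase, had the lowest log2 fold change of the members. In ATRA it stood at 22.0 CPM with hairpin 1, 20.7 CPM with hairpin 2 and 25.2 CPM in the control, against 140 CPM with hairpin 1, 160 CPM with hairpin 2 and 140 CPM in the control in DMSO. The level in DMSO was 6.46 times that in ATRA, and each ATRA library lay far below each DMSO library (log2 fold change -2.70 ± 0.09, SE, n = 3 against 3; edgeR adjusted p = 2.6e-08). CBX2, a chromodomain subunit that ties PRC1 to methylated H3K27, stood at 12.5, 14.2 and 11.9 CPM in ATRA (hairpin 1, hairpin 2, control), against 69.3, 64.5 and 76.3 CPM in DMSO. Its level in DMSO was 5.45 times that in ATRA, again with no overlap (-2.44 ± 0.09, adjusted p = 5.5e-08).

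KDM6B, an H3K27 demethylase known as an inducible gene of activated myeloid cells, had the highest log2 fold change. It stood at 90.5, 73.7 and 103 CPM in ATRA, against 32.6, 34.4 and 33.4 CPM in DMSO (hairpin 1, hairpin 2, control). The ATRA level was 2.67 times that in DMSO, and it varied more between the constructs in ATRA than in DMSO (1.40 ± 0.10, adjusted p = 2.4e-06). TET2, which oxidises methylated cytosine and is known as a tumour suppressor in myeloid cells, stood at 74.7, 74.4 and 70.7 CPM in ATRA, against 28.1, 29.8 and 28.2 CPM in DMSO. The 3 constructs were within a few CPM of each other in each treatment, and the ATRA level was 2.55 times that in DMSO (1.35 ± 0.05, adjusted p = 6.4e-08).

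**Figure D2:**
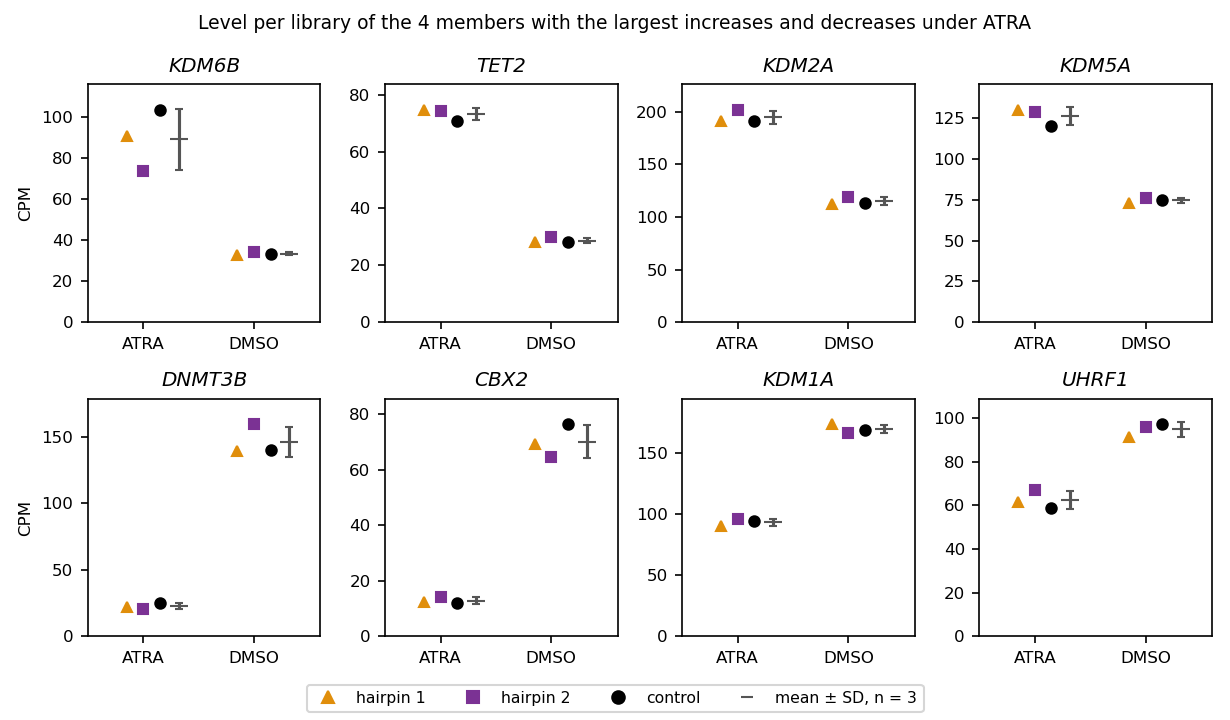
CPM in each library of the 4 members with the largest called increases (top row) and the 4 with the largest called decreases (bottom row), ATRA left and DMSO right, with the mean and SD of 3 libraries. In every panel the ATRA and DMSO libraries are apart, as for TET2 at 70.7 to 74.7 CPM in ATRA against 28.1 to 29.8 CPM in DMSO.

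Promoter sequence was shown for the 2 members with the largest increases and the 2 with the largest decreases that have an entry in the RefSeq promoter table, which matched 38 of the 42 measured members. CBX2, CBX8, SETD1B and DOT1L were without an entry. Each run covers bases 250 to 51 before the most upstream RefSeq start, 5′ to 3′ on the plus strand of GRCh38.p14, a later build than that of the counts. Capitals mark matches to 5 short motifs searched on both strands. The E2F core was searched as TTCCCGC and, in its other common form, as TTGGCGC. The letters of the ETS core were CCGGAAG, and the CCAAT box was searched by its name. For the NRF1 core the letters were GCATGCG. The retinoic acid receptor half-site was searched as AGGTCA and, with another first base, as GGGTCA. No motif overlaps another in the windows shown, and the capitals in KDM1A are the NRF1 core read on the opposite strand.
KDM6B, chr17:7833967-7834166: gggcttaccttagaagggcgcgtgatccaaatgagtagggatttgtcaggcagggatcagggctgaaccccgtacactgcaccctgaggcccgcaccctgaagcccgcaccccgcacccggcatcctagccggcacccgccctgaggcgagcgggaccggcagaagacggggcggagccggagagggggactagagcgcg
TET2, chr4:105145625-105145824: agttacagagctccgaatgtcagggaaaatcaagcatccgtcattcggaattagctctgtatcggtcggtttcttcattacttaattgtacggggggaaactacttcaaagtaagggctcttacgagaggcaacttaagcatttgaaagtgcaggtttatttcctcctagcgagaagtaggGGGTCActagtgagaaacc
DNMT3B, chr20:32779602-32779801: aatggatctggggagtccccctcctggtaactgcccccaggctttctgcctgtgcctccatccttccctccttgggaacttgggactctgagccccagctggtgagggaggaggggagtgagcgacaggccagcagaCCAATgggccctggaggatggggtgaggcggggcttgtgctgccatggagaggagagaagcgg
KDM1A, chr1:23019218-23019417: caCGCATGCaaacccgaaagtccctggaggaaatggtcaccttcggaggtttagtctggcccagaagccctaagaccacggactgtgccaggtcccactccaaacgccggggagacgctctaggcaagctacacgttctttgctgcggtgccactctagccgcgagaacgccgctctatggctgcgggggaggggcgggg

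The windows differed in CpG content, the substrate of the DNA methyltransferases. The KDM6B window held 17 CpG dinucleotides, the TET2 window 8, the DNMT3B window 3 and the KDM1A window 15. The median was 17 over the members and 7 over all 27305 RefSeq genes in the table, which were not limited to the genes counted in NB4. The motif shares of all genes below refer to the same RefSeq genes. A retinoic acid receptor half-site was in the window of 3 of 14 members that rose, TET2 among them, in 0 of 14 that fell and in 18.2% of all genes. The CCAAT box was in 5 of 14 that fell, DNMT3B among them, in 1 of 14 that rose and in 28.3% of all genes. An E2F core was in 2 of 14 that rose, 1 of 14 that fell and 6.27% of all genes. An ETS core was in 1 of 14 of each and 5.16% of all genes, and an NRF1 core in 1 of 14 that rose, 2 of 14 that fell, KDM1A among them, and 2.33% of all genes. A match is only a description of the letters.

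Of the 5 PRC2 members, 1 rose, 3 fell and 1 was not called. EZH2, the main H3K27 methyltransferase of dividing cells, stood at 170, 180 and 155 CPM in ATRA, against 192, 209 and 199 CPM in DMSO (hairpin 1, hairpin 2, control). All ATRA libraries lay below the DMSO libraries, but the change was small (-0.25 ± 0.06, adjusted p = 0.0037). EZH1, its paralog of resting cells, fell more, with 44.7, 40.7 and 44.2 CPM in ATRA against 64.9, 63.2 and 62.1 CPM in DMSO (-0.56 ± 0.06, adjusted p = 2.5e-05). EED, the subunit that binds methylated H3K27, went the other way. It stood at 65.8, 68.4 and 60.0 CPM in ATRA, against 49.2, 46.8 and 46.8 CPM in DMSO (0.44 ± 0.05, adjusted p = 7.7e-05). JARID2, an accessory subunit that brings PRC2 to chromatin, stood at 128, 120 and 134 CPM in ATRA, against 172, 184 and 159 CPM in DMSO (-0.43 ± 0.07, adjusted p = 3.9e-04). SUZ12, the scaffold subunit, stood at 0.04 ± 0.04 (adjusted p = 0.42), and its reads can be shared with a partial copy of the gene.

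Of the 5 measured PRC1 members, CBX2 and CBX8 fell and 3 were not called. CBX8, another chromodomain subunit, stood at 12.8, 12.2 and 14.4 CPM in ATRA, against 16.3, 13.9 and 16.4 CPM in DMSO, and these ranges overlapped (-0.25 ± 0.09, adjusted p = 0.034). Its call was lost in DESeq2 (adjusted p = 0.058) and without 5 of the 6 libraries, left out in turn, with adjusted p of 0.061 without the control in DMSO, 0.16 without hairpin 1 in DMSO, 0.061 without the control in ATRA, 0.082 without hairpin 1 in ATRA and 0.10 without hairpin 2 in ATRA. BMI1, the partner that stimulates the PRC1 ubiquitin ligase, had a log2 fold change of 0.21 ± 0.09 (adjusted p = 0.066). It was called higher by DESeq2 (0.22, adjusted p = 0.045), with run 1 only (adjusted p = 0.0452) and without hairpin 1 in DMSO (0.32, adjusted p = 0.0077). It stood at 0.11 (adjusted p = 0.18) without hairpin 2 in DMSO and at 0.078 (adjusted p = 0.44) with total counts. Its reads can be shared with a read-through transcript of COMMD3. RNF2, the ubiquitin ligase itself, stood at 0.07 ± 0.07, and CBX7 at -0.17 ± 0.12 with 4.11 to 5.04 CPM over all libraries. CBX2 therefore changed by far more than the other PRC1 genes measured.

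All 4 DNA methylation genes were called, where 36.2% of all genes rose and 37.8% fell. The de novo enzymes changed in opposite directions. DNMT3A stood at 145, 149 and 145 CPM in ATRA, against 100, 102 and 109 CPM in DMSO (0.50 ± 0.05, adjusted p = 1.5e-05), while DNMT3B fell as given above. Per kilobase of exon, the level of DNMT3A was 2.49 to 3.11 times that of DNMT3B in ATRA, against 0.275 to 0.336 times in DMSO. The order of these paralogs was thus reversed between the treatments in every construct. UHRF1, which brings DNMT1 to newly replicated DNA, stood at 61.7, 66.8 and 58.6 CPM in ATRA, against 91.0, 96.0 and 97.1 CPM in DMSO (-0.60 ± 0.06, adjusted p = 2.3e-05). DNMT1, the maintenance methyltransferase, had the highest level per kilobase of all 42 members in both treatments, with 133 ± 5.47 CPM per kilobase in ATRA and 164 ± 6.42 in DMSO (SD, n = 3 each). It fell slightly (-0.31 ± 0.05, adjusted p = 6.7e-04).

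UHRF1, DNMT1 and EZH2 are known to be expressed with DNA replication. Of 22 genes listed for S phase and proliferation, 16 fell and 3 rose (median log2 fold change -0.42, against -0.013 for all genes). The largest of these changes were CCNE1 at -1.08 ± 0.18, CDT1 at -1.06 ± 0.05, E2F1 at -0.94 ± 0.06, MCM4 at -0.85 ± 0.08, MCM7 at -0.78 ± 0.06 and GINS2 at -0.74 ± 0.11, whereas PCNA stood at -0.05 ± 0.06. The 3 that rose were RRM2 at 0.58 ± 0.06, MKI67 at 0.37 ± 0.07 and CCNE2 at 0.26 ± 0.10. The part of S-phase activity in the changes of UHRF1, DNMT1 and EZH2 was not tested.

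Of the TET enzymes, TET2 and TET3 rose and TET1 fell. TET3 had a log2 fold change of 0.32 ± 0.05 (adjusted p = 3.8e-04). TET1 stood at -0.28 ± 0.08 (adjusted p = 0.014), a call lost without hairpin 1 in DMSO (adjusted p = 0.065) and without hairpin 1 in ATRA (adjusted p = 0.056). Per kilobase, TET3 remained above TET2, by 2.89 to 3.05 times in ATRA against 5.76 to 6.29 times in DMSO. TET1 was next to last in level among the members, at 1.28 ± 0.03 CPM per kilobase in ATRA and 1.55 ± 0.08 in DMSO.

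Among the 6 H3K4 methyltransferases, 3 rose, 2 fell and KMT2B was not called (-0.02 ± 0.06). KMT2C and KMT2D, which methylate H3K4 at enhancers, rose. KMT2C stood at 241, 250 and 222 CPM in ATRA, against 179, 191 and 173 CPM in DMSO (0.39 ± 0.05, adjusted p = 7.1e-05), and its reads can be shared with duplicated fragments of the gene elsewhere in the genome. KMT2D had a log2 fold change of 0.37 ± 0.08 (adjusted p = 0.0029). KMT2A, the gene rearranged in mixed-lineage leukemia, fell, with 135, 132 and 123 CPM in ATRA against 167, 173 and 178 CPM in DMSO (-0.41 ± 0.05, adjusted p = 1.2e-04). The SETD1 paralogs, which place H3K4 methylation at promoters, moved apart. SETD1B stood at 133, 135 and 121 CPM in ATRA, against 83.1, 90.0 and 94.99 CPM in DMSO (0.54 ± 0.07, adjusted p = 8.8e-05). SETD1A stood at 49.6, 50.8 and 45.2 CPM in ATRA, against 68.0, 65.5 and 65.5 CPM in DMSO (-0.45 ± 0.05, adjusted p = 5.4e-05). Per kilobase, SETD1A was at 0.480 to 0.483 times the level of SETD1B in ATRA, against 0.888 to 1.05 times in DMSO.

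**Figure D3:**
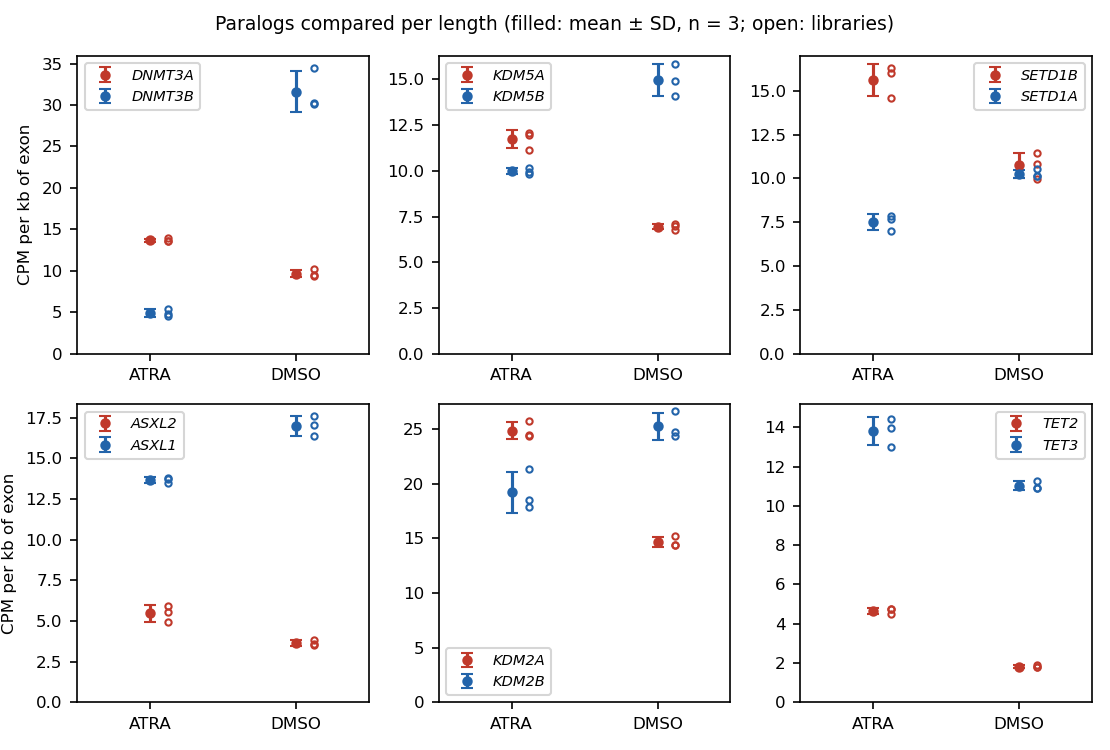
CPM per kilobase of exon for 6 pairs of paralogs in ATRA (left) and DMSO (right); filled points are the mean ± SD of 3 libraries and open points the libraries. DNMT3B lies above DNMT3A in DMSO and below it in ATRA, and KDM2B likewise lies above KDM2A in DMSO and below it in ATRA. KDM5B also lies above KDM5A in DMSO and below it in ATRA, but in CPM, without division by length, it is above KDM5A in both.

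The other lysine methyltransferases changed little, with log2 fold changes between -0.20 and 0.26. SETD2, the H3K36 trimethylase, rose by 0.26 ± 0.05 (adjusted p = 0.0015) and NSD1, an H3K36 dimethylase, by 0.26 ± 0.05 (adjusted p = 0.0023). DOT1L, the H3K79 methyltransferase, stood at -0.20 ± 0.05 (adjusted p = 0.0048). EHMT1, which methylates H3K9 with EHMT2, stood at -0.15 ± 0.05 (adjusted p = 0.016), a call lost without the control in DMSO (adjusted p = 0.089), the control in ATRA (0.081) or hairpin 1 in DMSO (0.052). The H3K9 trimethylases SETDB1 (0.03 ± 0.05) and SUV39H1 (-0.04 ± 0.06) were not called. With total counts, NSD1 was no longer called (adjusted p = 0.0605) and SUV39H1 was called lower (-0.17, adjusted p = 0.037), as was KMT2B (-0.15, adjusted p = 0.038).

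Demethylases rose in 5 of 11, fell in 3 and were not called in 3. KDM1A (LSD1), which removes H3K4 methylation and is a drug target in acute myeloid leukemia, stood at 90.2, 95.7 and 94.3 CPM in ATRA, against 173, 166 and 168 CPM in DMSO. No other demethylase fell as much (-0.86 ± 0.05, adjusted p = 5.1e-07). The H3K4 demethylases of the KDM5 family split. KDM5A stood at 130, 129 and 120 CPM in ATRA, against 73.0, 76.0 and 75.0 CPM in DMSO (0.76 ± 0.05, adjusted p = 1.3e-06). KDM5B stood at 142, 138 and 139 CPM in ATRA, against 209, 222 and 197 CPM in DMSO (-0.58 ± 0.05, adjusted p = 8.1e-06). Per kilobase, KDM5B was at 0.821 to 0.890 times the level of KDM5A in ATRA, against 2.02 to 2.24 times in DMSO. In CPM, KDM5B lay above KDM5A in every library. Its lower place per kilobase in ATRA thus rests on the exon lengths used, 14003 bases for KDM5B and 10763 for KDM5A. KDM5C rose by 0.18 ± 0.04 (adjusted p = 0.0035), and stood at 0.053 (adjusted p = 0.26) with total counts.

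Both H3K27 demethylases measured rose. KDM6A stood at 77.0, 76.4 and 78.5 CPM in ATRA, against 50.5, 51.1 and 54.9 CPM in DMSO (0.57 ± 0.05, adjusted p = 6.5e-06), a smaller change than that of KDM6B. Of the CpG-binding H3K36 demethylases, KDM2A rose and KDM2B, which brings a variant PRC1 to CpG islands, fell. KDM2A stood at 191, 201 and 191 CPM in ATRA, against 113, 119 and 113 CPM in DMSO (0.76 ± 0.05, adjusted p = 1.1e-06). KDM2B stood at 135, 156 and 130 CPM in ATRA, against 178, 194 and 181 CPM in DMSO (-0.39 ± 0.07, adjusted p = 6.4e-04). Per kilobase, KDM2A was at 1.21 to 1.37 times the level of KDM2B in ATRA, against 0.571 to 0.591 times in DMSO. KDM3A, KDM4A and KDM4B, which act on H3K9, were not called (-0.07 ± 0.08, 0.04 ± 0.05 and 0.0014 ± 0.06). Without the control in DMSO, KDM3A was called lower (-0.20, adjusted p = 0.012), as it was without the control in ATRA (-0.20, adjusted p = 0.010).

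The ASXL proteins, partners of the H2A deubiquitinase BAP1, changed in opposite directions. ASXL2 stood at 72.2, 76.6 and 63.6 CPM in ATRA, against 45.6, 50.0 and 46.4 CPM in DMSO (0.58 ± 0.06, adjusted p = 4.2e-05). ASXL1 fell slightly (-0.31 ± 0.05, adjusted p = 2.7e-04). Per kilobase, ASXL1 remained above ASXL2, by 2.32 to 2.74 times in ATRA against 4.55 to 4.75 times in DMSO.

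Other genes of the same complexes and enzyme classes were taken from a separate list of 64 names, of which 62 were measured. Of these, 23 rose and 26 fell (median log2 fold change 0.00058), where 36.2% of all genes rose and 37.8% fell. The largest changes were in PCGF5 (1.04 ± 0.06), a PRC1 subunit, SETD7 (-0.99 ± 0.07), a lysine methyltransferase, the arginine methyltransferase genes CARM1 (-0.98 ± 0.05) and PRMT5 (-0.90 ± 0.05), SMYD2 (-0.85 ± 0.08), another lysine methyltransferase, and PHC2 (0.85 ± 0.08), a PRC1 subunit.

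Knockdown of SMARCD2 moved these genes far less than ATRA did, and the same held for all genes. For knockdown, the median absolute log2 fold change of the members was 0.10 in ATRA and 0.064 in DMSO. Over all genes it was 0.10 in ATRA and 0.087 in DMSO. No member passed the edgeR test in ATRA, in DMSO, over both treatments or in the difference between the treatments. SMARCD2 itself did not pass it either, with -1.29 ± 0.31 in ATRA (adjusted p = 0.32), -1.55 ± 0.32 in DMSO (adjusted p = 0.39) and -1.42 ± 0.22 over both (adjusted p = 0.38, and 0.032 in DESeq2). Its standard errors were larger than those of any member. A missed call at this number of libraries thus does not show that a gene was unchanged. In ATRA, 4 of 42 members (9.52%) had an unadjusted p under 0.05, against 10.8% of all genes, and 0.00813% of all genes were called. In DMSO, 2 members (4.76%) had an unadjusted p under 0.05, against 7.06% of all genes, and 0% were called. Over both treatments, 1 member (2.38%) had an unadjusted p under 0.05, against 8.15% of all genes, and 0% were called. The comparison over both treatments counts the libraries of a hairpin as independent, although they share a construct. DESeq2 called 0 members in each of these comparisons, where it called 0.439% of all genes in ATRA, 0.309% in DMSO and 0.39% over both. With run 1 only, which lacks the difference in run mix between knockdown and control libraries, edgeR also called 0. The log2 fold changes of the members lay between -0.33 and 0.31 in ATRA and between -0.19 and 0.20 in DMSO.

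In ATRA, the members with the largest differences from the control, among those with both hairpins on the same side, were KDM6B, KMT2D, DNMT3B, ASXL2 and KDM3A. KDM6B, given above, was below the control with both hairpins, with a log2 fold change of -0.33 ± 0.12 (SE, n = 2 knockdown and 1 control; edgeR adjusted p = 0.40). It stood at -0.49 without hairpin 1 in ATRA and at -0.20 without hairpin 2, so its size rested on hairpin 2. KMT2D stood at 247 CPM with hairpin 1 and 271 CPM with hairpin 2 in ATRA, against 208 CPM in the control (0.31 ± 0.08, adjusted p = 0.31). In DMSO it stood at 181 and 187 CPM with the hairpins, against 193 CPM in the control. The authors' deposited table for ATRA lists KMT2D at 0.28 (adjusted p = 0.0010) and KDM6B at -0.29 (adjusted p = 0.025), the only members it calls (2 of 42, or 4.76%, against 4.17% of the genes it lists), and the one for DMSO calls 0 members and 1.14% of its genes. The authors' tables list SMARCD2 at -0.40 in ATRA (authors' adjusted p = 0.0073) and at -0.96 in DMSO (authors' adjusted p = 1.75e-21). These are smaller in size than the edgeR values given above, so the authors' fold changes may not be on the same scale. The authors' test may have counted the sequencing runs as replicates. DNMT3B was below the control with both hairpins in ATRA (-0.24 ± 0.11, adjusted p = 0.47) and ASXL2 above it (0.23 ± 0.08, adjusted p = 0.42).

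KDM3A, an H3K9 demethylase known as a hypoxia-induced gene, differed from the control in opposite ways in the treatments. It stood at 94.6 CPM with hairpin 1 and 97.5 CPM with hairpin 2 in ATRA, against 112 CPM in the control (-0.22 ± 0.07, adjusted p = 0.38). In DMSO it stood at 108 and 113 CPM with the hairpins, against 96.3 CPM in the control (0.20 ± 0.07, adjusted p = 0.66). The other members with the largest differences in DMSO were RNF2 at 27.8 and 27.7 CPM with the hairpins, against 24.1 CPM in the control (0.20 ± 0.09, and 0.30 with run 1 only), CBX2 (-0.19 ± 0.09), KDM4B (0.17 ± 0.07) and JARID2 (0.16 ± 0.07). KDM4B stood at 73.0 and 75.6 CPM with the hairpins in DMSO, against 66.0 CPM in the control. In ATRA, it stood at 71.3 and 68.4 CPM with the hairpins, against 75.4 CPM in the control, and RNF2 stood at 27.1 and 27.9 CPM, against 28.7 CPM. None of these passed the test, with the lowest adjusted p of any member in DMSO at 0.66.

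**Figure D4:**
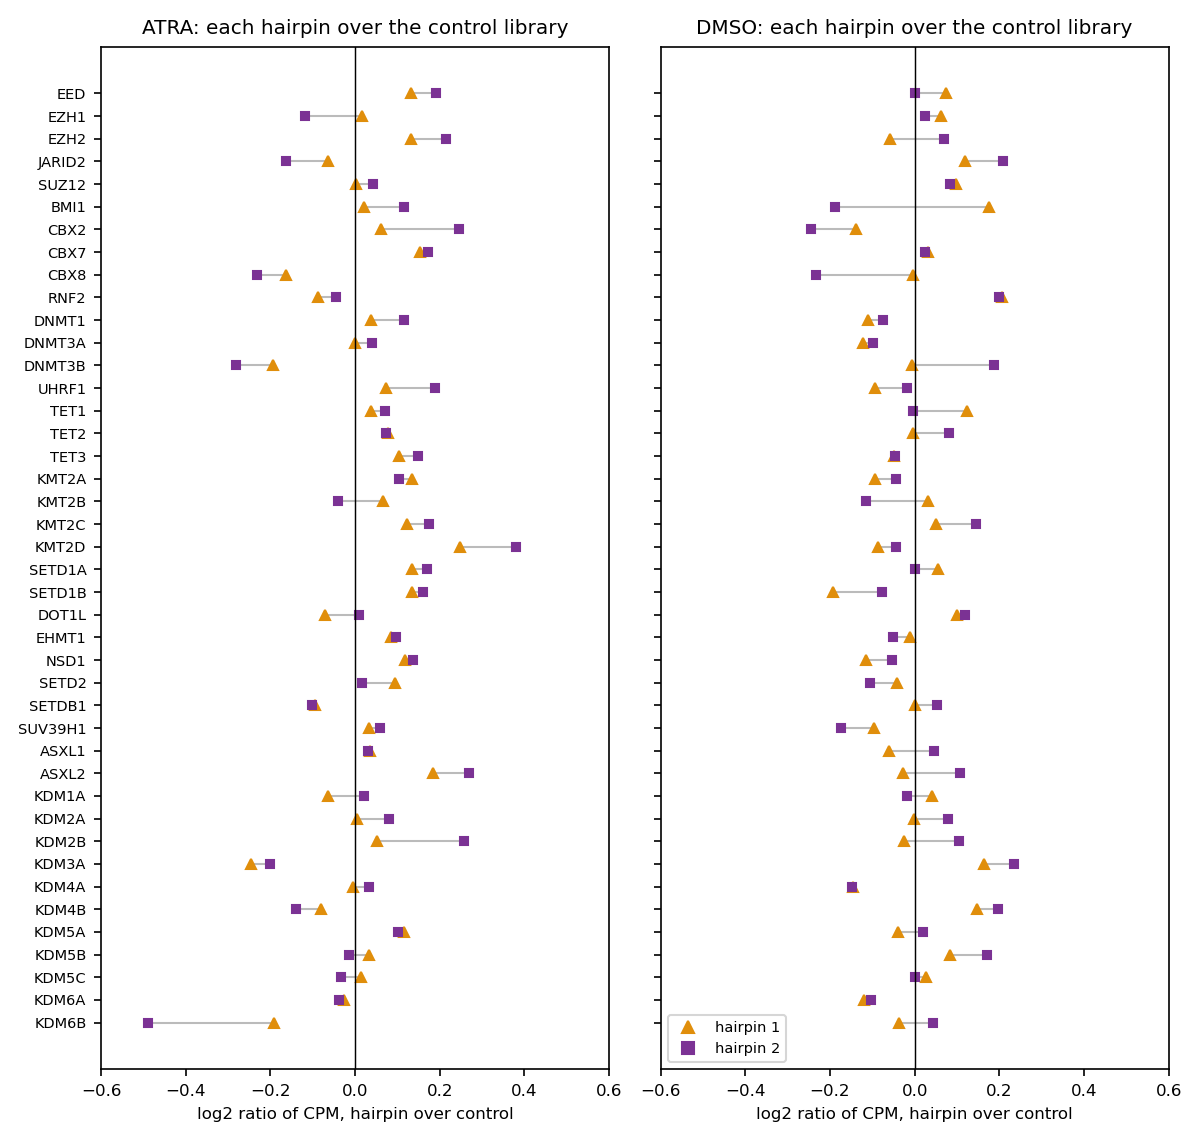
Log2 ratio of CPM, each hairpin over the control library of the same treatment, for the 42 measured members in ATRA (left) and DMSO (right). The ratios lie within 0.5 of 0 on the log2 scale, with hairpin 2 on KDM6B in ATRA the lowest at -0.49, and KDM3A lies left of 0 in ATRA and right of it in DMSO.

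The difference in ATRA response between knockdown and control cells was largest for KDM3A (-0.42 ± 0.10, adjusted p = 0.37), KMT2D (0.38 ± 0.11, adjusted p = 0.46), CBX2 (0.34 ± 0.15), DNMT3B (-0.33 ± 0.14) and KDM6B (-0.33 ± 0.17). The value of KDM6B was -0.21 without hairpin 2 in ATRA, and that of CBX2 was 0.22 with run 1 only. ATRA over DMSO gave log2 ratios for KDM3A of -0.19 with hairpin 1 and -0.22 with hairpin 2, against 0.22 in the control. For KMT2D they were 0.44 and 0.53 with the hairpins, against 0.11 in the control. Of 42 members, 6 (14.3%) had an unadjusted p under 0.05, against 7.96% of all genes, and 0.0488% of all genes and 0 members were called. DESeq2 also called 0 members, and 0.39% of all genes.

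Members could be sorted by their side of the control. All 4 knockdown libraries lay above the control of their treatment in EED, SUZ12, CBX7 and KMT2C, or 9.52% of the members, against 14.6% of all genes. All 4 lay below it in CBX8 and KDM6A, or 4.76%, against 14.2% of all genes. In 17 members (40.5%, against 25.2% of all genes) both hairpins lay on 1 side of the control in ATRA and on the other side in DMSO. Of these, 12 were above the control in ATRA and below it in DMSO, including DNMT1, UHRF1, DNMT3A, KMT2A, KMT2D, SETD1B and TET3, and 5 the reverse, namely JARID2, RNF2, SETDB1, KDM3A and KDM4B. The share of all genes in each of these directions was not counted. Each treatment had a single control library, so its position and the knockdown cannot be told apart here. The genes listed for S phase and proliferation had a median log2 fold change of 0.19 for knockdown over control in ATRA and of -0.058 in DMSO. The measured promyelocyte markers had medians of 0.37 in ATRA and 0.093 in DMSO. The part of both lists in this pattern was not tested.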

How the data were processed

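Gene counts from RNA-seq of 6 NB4 libraries were used, and the members and gene lists were chosen with earlier results of these data known. A GeneJET kit for RNA and a NEBNext Ultra RNA kit for libraries were used, per the labels' protocols. The submitters' processing notes name GRCh37.p13 and the tools STAR, bcl2fastq, DESeq2 and Picard 2.5.0. The read counter, the use of strand and the rule for listing a gene in a table are not given in the sources used. Counts were deposited by the authors as whole numbers in 2 columns per library, 1 for each sequencing run named in the design text, and were summed here. The authors' log2 fold change, p-value and adjusted p-value of knockdown against control are further columns, per the file headers. The authors' 12 columns of normalized values were not used.

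Counts of the 12301 genes in both tables were filtered with filterByExpr, scaled with TMM on the full table totals and tested with edgeR 4.0.16 in R 4.3.3 (quasi-likelihood test, Benjamini-Hochberg adjustment over all genes, threshold 0.05). ATRA against DMSO, and knockdown against control over both treatments, came from a fit with knockdown state and treatment (3 residual degrees of freedom). The comparisons within a treatment and the difference in ATRA response came from a fit of 4 groups (2 residual degrees of freedom, from the spread between hairpins, which the lone controls are assumed to share). A standard error is the ratio of the absolute log2 change to the root of its F statistic. CPM is the count scaled to the TMM-adjusted library size. Levels per length divide CPM by the union of exons in GENCODE release 29 (basic set, GRCh38), which may differ from the annotation the counts were made with. Promoter windows are from RefSeq on GRCh38.p14.

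Values in every library are given for the 10 members with the largest called change in each direction under ATRA and for the 5 with the largest change in each knockdown contrast among those with both hairpins on the same side of the control. Alternatives were DESeq2 1.42.0, total-count scaling, no filter (filterByExpr had removed no gene), a minimum of 10 CPM, run 1 only, leaving out each library, and the construct as a block. The fits were tested on simulated counts, with 100 genes changed by 0.5 log2 and 100 by 1 log2 per comparison. Of the changes of 0.5, 85 were called for ATRA against DMSO and 90 for knockdown over both treatments. For knockdown, 77 were called in ATRA and 74 in DMSO, but only 31 for the difference in ATRA response. Of the changes of 1, 90 to 100 were called. False calls numbered 11 to 23 per comparison. Simulated libraries were drawn independently, from a common mean per gene apart from the planted changes and the library totals. The shares called hold only for that setting and do not give the power of the knockdown tests here. In the measured counts, edgeR did not call SMARCD2, at -1.29 in ATRA and -1.55 in DMSO.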

Additional observations from a re-analysis of the deposited data

How the results depend on the processing

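The counts of members called under ATRA stayed within 1.5 times of 15 higher and 17 lower under all alternatives, with 15 to 16 higher and 14 to 17 lower when each library was left out. With total counts, the signs of SUZ12 (-0.090), RNF2 (-0.060), SETDB1 (-0.10), KDM4A (-0.085) and KDM4B (-0.13) turned, as follows from a shift of -0.13 in every member. Leaving out the filter changed nothing, since it had removed no gene. KDM4B stood at -0.0055 with a minimum of 10 CPM, and with run 1 only KMT2B stood at 0.00098 and SETDB1 at -0.0028. Leaving out libraries gave ranges across 0 for RNF2 (-0.014 to 0.11), KMT2B (-0.059 to 0.032), SETDB1 (-0.012 to 0.058), SUV39H1 (-0.077 to 0.019) and KDM4B (-0.089 to 0.047). None of these members was called in the reported fit. The cause of the turns other than those with total counts was not tested.

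The hairpin numbers were checked for pairing. Deviations from the treatment mean correlated between ATRA and DMSO, across 9467 genes, with r = 0.19 for hairpin 1, 0.21 for hairpin 2 and 0.08 for the control, and each library correlated best with that of its own construct. The control lies under 0.1 and the labels name no shared culture, so the constructs were not treated as pairs. With the construct as a block, 15 members were higher and 17 lower under ATRA. With the hairpin number as a block, 1 member was higher in knockdown cells in ATRA, KMT2D (0.31, adjusted p = 0.021), and 0 in DMSO; that fit has 1 residual degree of freedom and called 2.83% of all genes in ATRA and 0.943% in DMSO. No block could be fitted for knockdown over both treatments, since construct and knockdown state coincide. Precision is limited by 1 control library per treatment; CBX7 had the fewest reads of the members, at least 116 in every library.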
